A study of Mus musculus with 6 samples.

Results

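The genes described here build and regulate cholesterol and fatty acids: 35 genes, named by symbol, that cover the mevalonate pathway, the squalene and sterol ring steps, the SREBP control circuit, fatty acid synthesis, and sterol transport with the LXR receptors. Of these, 34 had a probe set carrying a single gene symbol, out of 19937 genes tested on the arrays, and Nr1h2 was not analysed here. Each gene was read from its brightest such probe set, and each of the 34 lay above the lower quartile of mean log2 intensity over all genes, so none was at the dim end of the arrays. The material was Thy1.2+ cells purified magnetically from E17.5 fetal thymi of Rag1-/- mice, in 3 groups of 2 arrays, and each group carried the Rag1 deletion. The 79-6 group had been stimulated with anti-CD3 for 40 h in the presence of 50 µM 79-6, a small molecule that blocks the co-repressor groove of Bcl6, a transcriptional repressor. The DMSO group had received anti-CD3 and DMSO for 40 h. The fresh group was taken at 0 h, with no culture, antibody or vehicle. The series design speaks of organ culture of fetal thymi, whereas the labels of the samples speak of stimulation alone.

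As a model, Rag1-/- thymocytes cannot rearrange their receptor genes and stop before the pre-T cell receptor is made; anti-CD3 stands in for that receptor's signal. Comparisons with fresh cells therefore hold culture, time, antibody and vehicle together. Nothing in the labels ties replicates to separate litters or cultures, so p-values measure the spread between these arrays, which may be technical. Replicate arrays correlated at 0.997 to 0.998 over genes, and arrays of different groups at 0.979 to 0.995. Thy1, Ptprc and Cd3e were bright on every array, with log2 intensities of 11.85 or more. Markers of other cells were present and shifted between groups. The summed intensity of 19 macrophage and dendritic cell markers was 27539 and 30482 in the 79-6 arrays, 20969 and 22253 in the DMSO arrays and 7546 and 11287 in the fresh arrays. For 16 thymic epithelial markers it was 6462 and 6327 in the 79-6 arrays, 5088 and 7160 in the DMSO arrays, and 15276 and 15572 in the fresh arrays. None of these 19 or 16 markers had a mean below the lower quartile of all genes. Of the 19 macrophage markers, 2 were called higher by limma in 79-6 against DMSO. Against fresh cells 15 were called higher in 79-6 and 7 in DMSO, and 14 of the 16 epithelial markers were called lower in each. Of all genes tested, 2.38% were called higher and 1.98% lower in 79-6 against DMSO. Against fresh cells the shares were 12% higher and 13.9% lower in 79-6, and 8.89% higher and 10.7% lower in DMSO. Of 14 granulocyte and mast cell markers, 1 rose and 3 fell in 79-6 against DMSO, Mmp8 (1.30), Cpa3 (-1.43), Mpo (-0.86) and Prtn3 (-0.80), and their summed intensity was 6706 and 8661 in the 79-6 arrays, 5745 and 5647 in the DMSO arrays and 4166 and 4798 in the fresh arrays. Of 15 genes listed for T-lineage cells, 7 rose and 6 fell in 79-6 and 8 rose and 5 fell in DMSO against fresh cells. Summed, they read 58571 and 60037 with 79-6, 55819 and 57014 with DMSO and 71401 and 69494 in fresh cells. The part of these shifts in the lipid gene results was not tested, and in such bulk samples fewer cells of a type and less RNA per cell cannot be told apart.

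Cholesterol is made from acetyl-CoA through mevalonate and farnesyl diphosphate to squalene, which is closed into lanosterol and trimmed to cholesterol in the endoplasmic reticulum. Most of these enzymes are switched on together by SREBP transcription factors, which leave that membrane with the escort protein Scap when sterols are low and are held back by the Insig proteins when sterols are high. The LXR receptors respond to oxysterols in the opposite sense, inducing cholesterol efflux and slowing uptake. Dividing lymphocytes draw on both cholesterol and fatty acid synthesis to make new membrane.

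SREBPs act at promoters together with NF-Y, which binds CCAAT boxes, and Sp1, which binds GC boxes, so promoter sequences were searched for 4 motifs on both strands. RefSeq promoters on GRCm38.p6, running from 250 bases before to 50 bases after a gene's start, were found for 27 of the 34 measured genes, with 36 promoters in all because some genes have several starts. CCAAT was present in 22 of the 27 genes, or 81.5%, against 41.7% of 15613 tested genes with a promoter in the table. Counted by promoter, where a gene with several starts enters more than once, it was in 23 of the 36, or 63.9%. Of all 32851 promoters, which include those of genes not tested, 37.4% held it. GGGCGG was likewise present in 22 of 27 genes, against 52.9% of tested genes. The palindromic E box CACGTG was found in 6 of 27 genes, or 22.2%, against 9.5% of tested genes. The sterol regulatory element TCACNCCAC was found in 1 of 27 genes, Hmgcs1, against 1.4% of tested genes, and the promoters of Acaca, Elovl6 and Nr1h3 held none of the 4 motifs. In no promoter of these 27 genes did a CCAAT box overlap another of the motifs. A match describes letters in this window and says nothing of whether a factor binds there. Only these exact patterns were searched, so a missing match does not show that a gene lacks such an element.

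Below are 5 of these promoters, 5′ to 3′ on the gene's strand, with CCAAT or its reverse complement in capitals and, in Hmgcs1, the sterol regulatory element also in capitals. Hsd17b7 (chr1:169969156-169969455, minus strand), Lss (chr10:76531355-76531654, plus strand) and Nsdhl (chrX:72918271-72918570, plus strand) are shown as the genes with the largest falls against fresh cells in both cultured groups. Mylip (chr13:45389492-45389791, plus strand) is the gene that rose with 79-6 against DMSO, and Hmgcs1 (chr13:119690101-119690400, plus strand) is the one with a match to the sterol element searched.
Hsd17b7: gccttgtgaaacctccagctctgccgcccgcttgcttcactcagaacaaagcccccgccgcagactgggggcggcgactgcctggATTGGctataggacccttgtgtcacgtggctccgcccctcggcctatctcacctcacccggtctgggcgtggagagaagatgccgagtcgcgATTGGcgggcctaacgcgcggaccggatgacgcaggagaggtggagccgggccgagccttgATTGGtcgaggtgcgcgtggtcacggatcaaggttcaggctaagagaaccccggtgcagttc
Lss: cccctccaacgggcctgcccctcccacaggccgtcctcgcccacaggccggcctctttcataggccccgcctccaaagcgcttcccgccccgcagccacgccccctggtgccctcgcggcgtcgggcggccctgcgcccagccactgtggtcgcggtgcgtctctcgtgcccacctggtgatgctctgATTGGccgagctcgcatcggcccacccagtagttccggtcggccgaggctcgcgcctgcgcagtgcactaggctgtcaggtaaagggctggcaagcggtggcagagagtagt
Nsdhl: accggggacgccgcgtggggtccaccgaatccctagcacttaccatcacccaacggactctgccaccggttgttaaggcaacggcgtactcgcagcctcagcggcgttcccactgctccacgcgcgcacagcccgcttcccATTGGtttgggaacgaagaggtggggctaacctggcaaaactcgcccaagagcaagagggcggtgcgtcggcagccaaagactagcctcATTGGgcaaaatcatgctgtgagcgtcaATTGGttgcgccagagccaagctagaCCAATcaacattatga
Mylip: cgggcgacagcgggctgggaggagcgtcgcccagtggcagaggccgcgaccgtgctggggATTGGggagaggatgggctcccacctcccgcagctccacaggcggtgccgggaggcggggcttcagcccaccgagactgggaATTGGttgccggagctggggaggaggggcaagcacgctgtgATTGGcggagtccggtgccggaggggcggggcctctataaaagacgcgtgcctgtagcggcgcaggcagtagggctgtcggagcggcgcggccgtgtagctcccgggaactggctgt
Hmgcs1: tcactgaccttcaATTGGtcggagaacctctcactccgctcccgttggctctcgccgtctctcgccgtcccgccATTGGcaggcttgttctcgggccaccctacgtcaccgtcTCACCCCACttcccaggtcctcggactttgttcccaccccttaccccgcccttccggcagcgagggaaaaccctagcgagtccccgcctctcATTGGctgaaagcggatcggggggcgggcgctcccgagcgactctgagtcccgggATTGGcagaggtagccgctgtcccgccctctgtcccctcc

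The comparison of 79-6 with DMSO, both after 40 h with anti-CD3, asked what the Bcl6 inhibitor changed in stimulated cells. Among the lipid genes, Mylip rose and Acaca fell, and the other 32 did not pass the test (limma, Benjamini-Hochberg adjusted p under 0.05 over all 19937 genes). That is 2 of 34 genes, 1 in each direction, where 4.36% of all genes tested were called, 2.38% higher and 1.98% lower. The share called is thus near the background and is no result about these genes as a set. Their median log2 difference was -0.08, against 0.02 for all genes, and 24 of 34 had a negative difference, against 44.8% of all genes. At an unadjusted limma p under 0.05 there were 2 higher and 7 lower genes, where 2129 and 1950 of all 19937 genes were so placed.

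Mylip encodes a ubiquitin ligase, induced by LXR, that sends lipoprotein receptors for degradation. Its log2 intensity was 9.38 and 9.41 in the 79-6 arrays and 8.91 and 9.05 in the DMSO arrays, so the groups did not overlap. The fresh arrays read 8.88 and 8.95, next to the DMSO values. The difference of 79-6 minus DMSO was 0.41 ± 0.08 (limma SE, n = 2 each), a 1.33-fold higher level (adjusted p = 0.036, limma). The call did not survive the removal of any single array, with adjusted p between 0.0602 and 0.167 over 6 such fits.

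Acaca encodes acetyl-CoA carboxylase 1, which makes the malonyl-CoA that fatty acid synthase uses. It read 10.04 and 9.96 in the 79-6 arrays, 10.41 and 10.34 in the DMSO arrays and 10.66 and 10.54 in the fresh arrays. The 3 groups were apart, with the 79-6 arrays lowest. The difference of 79-6 minus DMSO was -0.37 ± 0.08 (limma SE, adjusted p = 0.047), or 1.29-fold lower, and its other probe set differed by -0.40. Leaving out any 1 array raised the adjusted p to between 0.0695 and 0.195, and the gene was not called when each gene was read from its probe set of median rank, which for Acaca is the dimmer of 2.

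The other genes of sterol transport and the LXR receptors did not pass the test. Abca1, the pump that loads cholesterol onto apolipoprotein A-I, read 8.45 and 8.66 in the 79-6 arrays, 8.07 and 8.40 in the DMSO arrays and 7.91 and 8.37 in the fresh arrays. Its difference of 79-6 minus DMSO was 0.32 ± 0.17 (limma adjusted p = 0.354). In each group the array with the higher macrophage marker sum also had the higher Abca1 value. The part of macrophage content in the Abca1 values was not tested. Abcg1, which passes cholesterol to larger lipoproteins, read 10.81 and 10.97 with 79-6 and 10.80 on both DMSO arrays. Nr1h3, which encodes LXR alpha, read 7.10 and 6.99 with 79-6 and 6.92 and 7.04 with DMSO. Stard4, a carrier of cholesterol between membranes, read 9.04 and 8.88 with 79-6 and 9.12 and 9.14 with DMSO.

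Scd1, a stearoyl-CoA desaturase that makes monounsaturated fatty acids, showed the widest difference between these groups among the 34 genes without passing the test. It read 10.38 and 10.20 in the 79-6 arrays, 10.80 and 10.82 in the DMSO arrays and 10.56 and 10.18 in the fresh arrays. Both DMSO arrays stood above the other 4. The difference of 79-6 minus DMSO was -0.52 ± 0.13 (limma SE, adjusted p = 0.0722), or 1.44-fold lower. In the fit of these 2 groups alone, which leaving out a fresh array repeats, the difference was called. That of DMSO minus fresh was 0.44 ± 0.13 (limma adjusted p = 0.0538), called without fresh replicate 1 (0.0149). Scd2, the paralog, read 13.25 and 13.17 with 79-6, 13.30 and 13.32 with DMSO and 13.43 and 13.35 in fresh cells.

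Insig1, which holds Scap and SREBP in the endoplasmic reticulum and is itself an SREBP target, read 10.75 and 10.58 in the 79-6 arrays, 10.94 and 10.97 in the DMSO arrays and 10.92 and 10.88 in the fresh arrays. The 79-6 arrays were below the other 4, with a difference of -0.29 ± 0.08 from DMSO (limma adjusted p = 0.0982). Its difference from fresh cells was -0.23 (limma adjusted p = 0.0726), called without 79-6 replicate 1 (0.0366). Of the 11 genes of the sterol branch, 6 were lower on both 79-6 arrays than on both DMSO arrays, Fdft1 (-0.24), Lss (-0.24), Dhcr7 (-0.27), Nsdhl (-0.29), Cyp51 (-0.29) and Hsd17b7 (-0.13), with limma adjusted p between 0.144 and 0.406. Ebp was apart the other way, higher on both 79-6 arrays, with a difference of 0.21 (limma adjusted p = 0.239). Across all 34 genes the arrays of the groups were apart for 16 with 79-6 lower and 5 with 79-6 higher, where 22.2% and 26.8% of all genes were so placed. For Hmgcs1 of the mevalonate pathway, 79-6 minus DMSO had a 95% interval of -0.17 to 0.20 on the log2 scale. For Sqle of the sterol branch it was -0.25 to 0.12, and for Srebf2 -0.18 to 0.17.

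**Figure D1:**
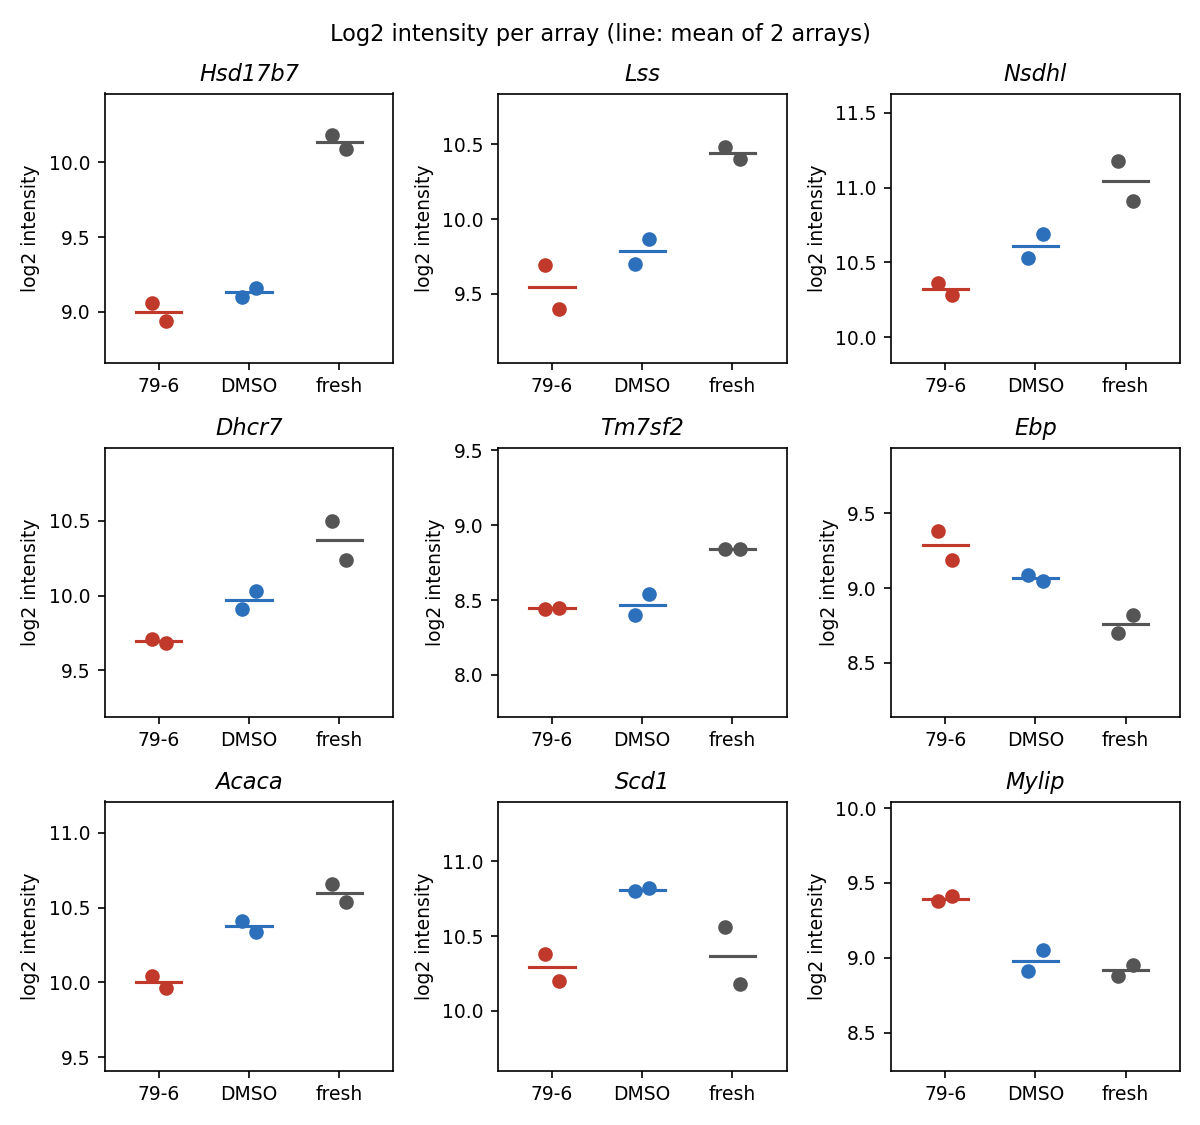
Log2 intensity (vertical axes, each spanning the same range of log2 units) of 9 genes on each array, by group, with 79-6 at the left, DMSO in the middle and fresh at the right; points are arrays and lines are means of 2. Hsd17b7 stood at 9.16 or below on the cultured arrays and at 10.09 or above on the fresh arrays, while Mylip was high on the 79-6 arrays alone, at 9.38 and 9.41.

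The comparison of DMSO with fresh cells asked how stimulated cells differed from the starting population. Of the 34 genes, 10 fell and 0 rose, where 10.7% of all genes were called lower and 8.89% higher, 19.6% in all (limma, adjusted p under 0.05). Those 10 were 29.4% of the lipid genes. Of the falls, 5 were in squalene and sterol ring steps, with 2 in the mevalonate pathway and 1 in each other group. The median log2 difference was -0.14, against 0.02 over all genes, and the arrays did not overlap for 22 genes lower and 7 higher in DMSO, where 28.1% and 31.9% of all genes were so placed. At an unadjusted limma p under 0.05 there were 14 lower and 3 higher genes, where 3189 and 2963 of all 19937 genes were so placed. The 10 falls became 3 when fresh replicate 1 was removed and 5 when fresh replicate 2 was, and removing a DMSO array left 1 (replicate 1) or 3 (replicate 2). With each array centred on the same median, 8 were lower and 2 higher, Ebp and Scd1.

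The comparison of 79-6 with fresh cells adds the inhibitor to the same culture. Here 13 genes fell and 3 rose, or 38.2% and 8.82% of the 34, where 13.9% of all genes were called lower and 12% higher, 26% in all (limma). The sterol ring steps held 7 of the 13 falls, fatty acid synthesis 3, the mevalonate pathway 2 and SREBP control 1. The 3 rises were those of Ebp, Insig2 and Mylip. The median log2 difference was -0.23, against 0.05 over all genes, and it was -0.30 without 79-6 replicate 1 and -0.15 without 79-6 replicate 2. The arrays were apart for 24 genes lower and 6 higher with 79-6, where 27.7% and 36.8% of all genes were so placed. Without fresh replicate 1 the falls numbered 7. The 2 comparisons share the fresh arrays, so their values for each gene are given side by side: 9 genes fell in both, Fdft1, Cyp51, Acaca and Fasn were called against fresh for 79-6, and Abcg1 was called for DMSO. Calls in one and not the other do not show a difference between 79-6 and DMSO, which was tested directly above.

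**Figure D2:**
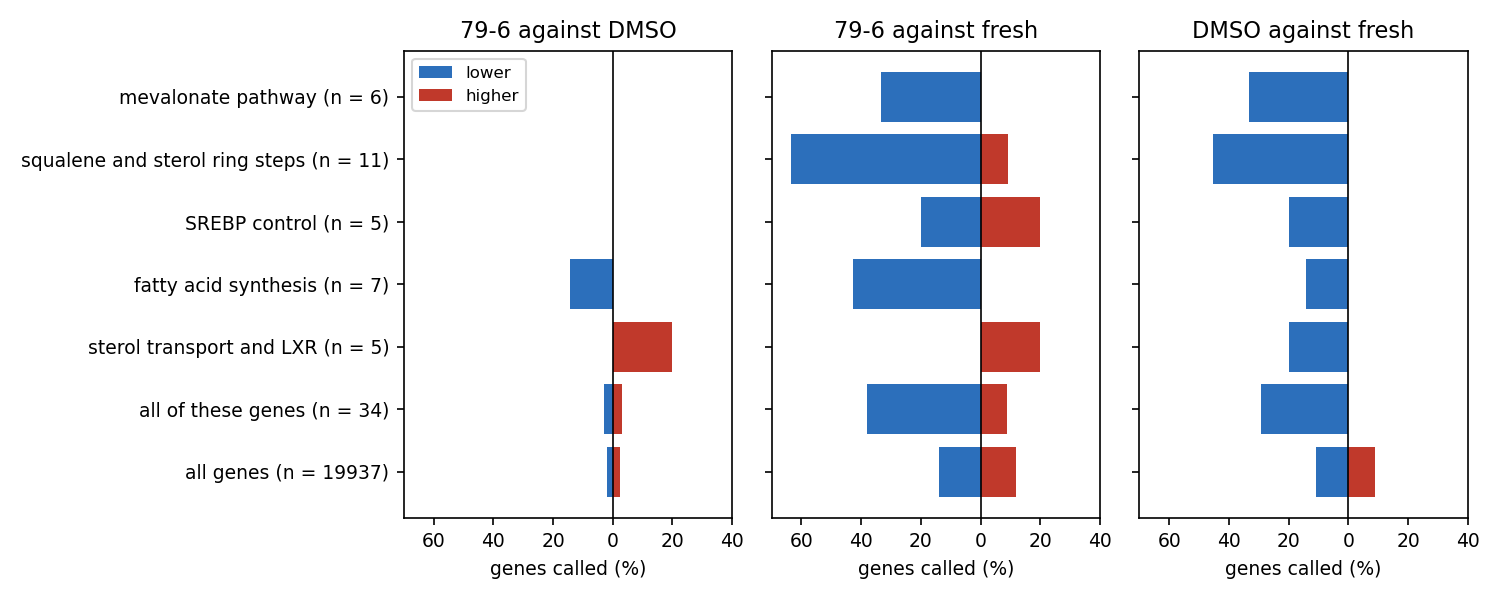
Percentage of genes called lower (bars to the left) and higher (bars to the right) at an adjusted p under 0.05 by limma, for each gene group, for the 34 genes together and for all 19937 genes, in each of the 3 comparisons. The squalene and sterol ring steps had 7 of 11 genes called lower in 79-6 against fresh cells and 5 of 11 in DMSO against fresh cells.

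Of the 34 genes, Hsd17b7 had the widest difference from fresh cells in both cultured groups. It encodes the 3-ketosteroid reductase of the complex that removes the methyl groups at carbon 4 of the sterol ring, and it read 9.06 and 8.94 in the 79-6 arrays, 9.10 and 9.16 in the DMSO arrays and 10.18 and 10.09 in the fresh arrays. The cultured arrays overlapped nowhere with the fresh ones. It fell by 1.13 ± 0.08 on the log2 scale in 79-6 against fresh cells, a 2.19-fold lower level (limma adjusted p = 0.000108). In DMSO against fresh cells its level was 2-fold lower, with a log2 SE of 0.08 (limma adjusted p = 0.000223), and both calls held whichever single array was removed. Its difference of 79-6 minus DMSO was -0.13, with a 95% interval from -0.32 to 0.06.

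Nsdhl, the dehydrogenase of the same complex, read 10.36 and 10.28 in the 79-6 arrays, 10.53 and 10.69 in the DMSO arrays and 11.18 and 10.91 in the fresh arrays. The 3 groups were apart, with fresh cells highest. It fell by 0.72 ± 0.11 in 79-6 against fresh cells (limma adjusted p = 0.00276) and by 0.44 ± 0.11 in DMSO against fresh cells (limma adjusted p = 0.0283). The DMSO call was lost without fresh replicate 1 or either DMSO array. Msmo1, the methyl oxidase that acts before both, read 10.68 and 10.42 with 79-6, 10.65 and 10.61 with DMSO and 10.86 and 10.71 in fresh cells, and was not called except, for 79-6 against fresh cells, without 79-6 replicate 1 (limma adjusted p = 0.0394).

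Lss, lanosterol synthase, closes the ring. It read 9.69 and 9.40 in the 79-6 arrays, 9.70 and 9.87 in the DMSO arrays and 10.48 and 10.40 in the fresh arrays, with both fresh arrays above the other 4. The fall was 1.85-fold in 79-6 against fresh cells (log2 difference -0.89 ± 0.11, limma adjusted p = 0.0014) and 1.57-fold in DMSO against fresh cells (-0.65 ± 0.11, limma adjusted p = 0.00701). Without DMSO replicate 1 the adjusted p for DMSO against fresh cells was 0.0533 (limma).

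Dhcr7, the reductase of a last step to cholesterol, read 9.71 and 9.68 in the 79-6 arrays, 9.91 and 10.03 in the DMSO arrays and 10.50 and 10.24 in the fresh arrays. It fell by 0.67 ± 0.10 in 79-6 against fresh cells (limma adjusted p = 0.00278) and the difference of DMSO minus fresh was -0.40 ± 0.10 (limma adjusted p = 0.0304), the second call being lost without fresh replicate 1 or either DMSO array. The 3 groups were apart. Tm7sf2, a sterol C14 reductase, read 8.44 and 8.45 with 79-6, 8.40 and 8.54 with DMSO and 8.84 on both fresh arrays. It fell by 0.39 ± 0.08 in 79-6 (limma adjusted p = 0.00841) and by 0.37 ± 0.08 in DMSO (0.0139) against fresh cells, with fresh arrays above all cultured ones. Both calls were lost without fresh replicate 1, and that for DMSO also without fresh replicate 2 or DMSO replicate 1.

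Lbr, the lamin B receptor, is a second sterol C14 reductase and moved the other way. It read 12.07 and 12.05 in the 79-6 arrays, 11.98 and 11.97 in the DMSO arrays and 11.25 and 11.30 in the fresh arrays. Fresh arrays were below all cultured ones, and the rise was 0.79 in 79-6 (limma adjusted p = 0.000262) and 0.70 in DMSO (0.000539). Lbr is one of 8 measured genes from a list of other sterol enzymes and sterol-linked proteins. In 79-6 against fresh cells 1 of the 8 rose and 3 fell, where 12% of all genes rose and 13.9% fell, and in DMSO against fresh cells 2 rose and 1 fell, where 8.89% rose and 10.7% fell. Besides Lbr these were Tmem97 (-0.46), Cyb5r3 (-0.42) and Acat1 (-0.31) for 79-6, and Cyb5r3 (-0.45) and Pgrmc1 (0.31) for DMSO. None of the 8 was called in 79-6 against DMSO.

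Ebp, the isomerase that moves the double bond from carbon 8 to carbon 7, also ran against its neighbours in the pathway. It read 9.38 and 9.19 in the 79-6 arrays, 9.09 and 9.05 in the DMSO arrays and 8.70 and 8.82 in the fresh arrays, with the groups apart and fresh cells lowest. It rose by 0.53 ± 0.09 in 79-6 against fresh cells (limma adjusted p = 0.00497). The difference of DMSO minus fresh was 0.31 ± 0.09, just outside the threshold at a limma adjusted p of 0.0503. Apart from fits with an array left out, 6 of 9 alternatives called Ebp higher in DMSO, among them quantile normalization. The replicate block, the median probe set and the 1.5-fold minimum did not. Sc5d, the desaturase that follows, read between 10.31 and 10.51 on all arrays and was not called.

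Fdft1, squalene synthase, commits farnesyl diphosphate to sterols. It read 11.43 and 11.41 in the 79-6 arrays, 11.62 and 11.71 in the DMSO arrays and 11.95 and 11.82 in the fresh arrays. It fell by 0.46 ± 0.08 in 79-6 against fresh cells (limma adjusted p = 0.00489), while DMSO minus fresh was -0.22 (limma adjusted p = 0.0973). Its second probe set gave -0.64 and -0.36 for these differences. Cyp51, which takes off the methyl group at carbon 14, read 9.62 and 9.30 with 79-6, 9.74 and 9.75 with DMSO and 9.94 and 9.80 in fresh cells. Its fall in 79-6 against fresh cells (-0.41 ± 0.11, limma adjusted p = 0.0369) was kept without 79-6 replicate 1 and lost without any other single array. Sqle, squalene epoxidase and a rate-limiting step, read 10.36 and 10.27 with 79-6, 10.43 and 10.34 with DMSO and 10.52 and 10.44 in fresh cells. It was not called, with differences of -0.16 for 79-6 and -0.10 for DMSO against fresh cells.

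**Figure D3:**
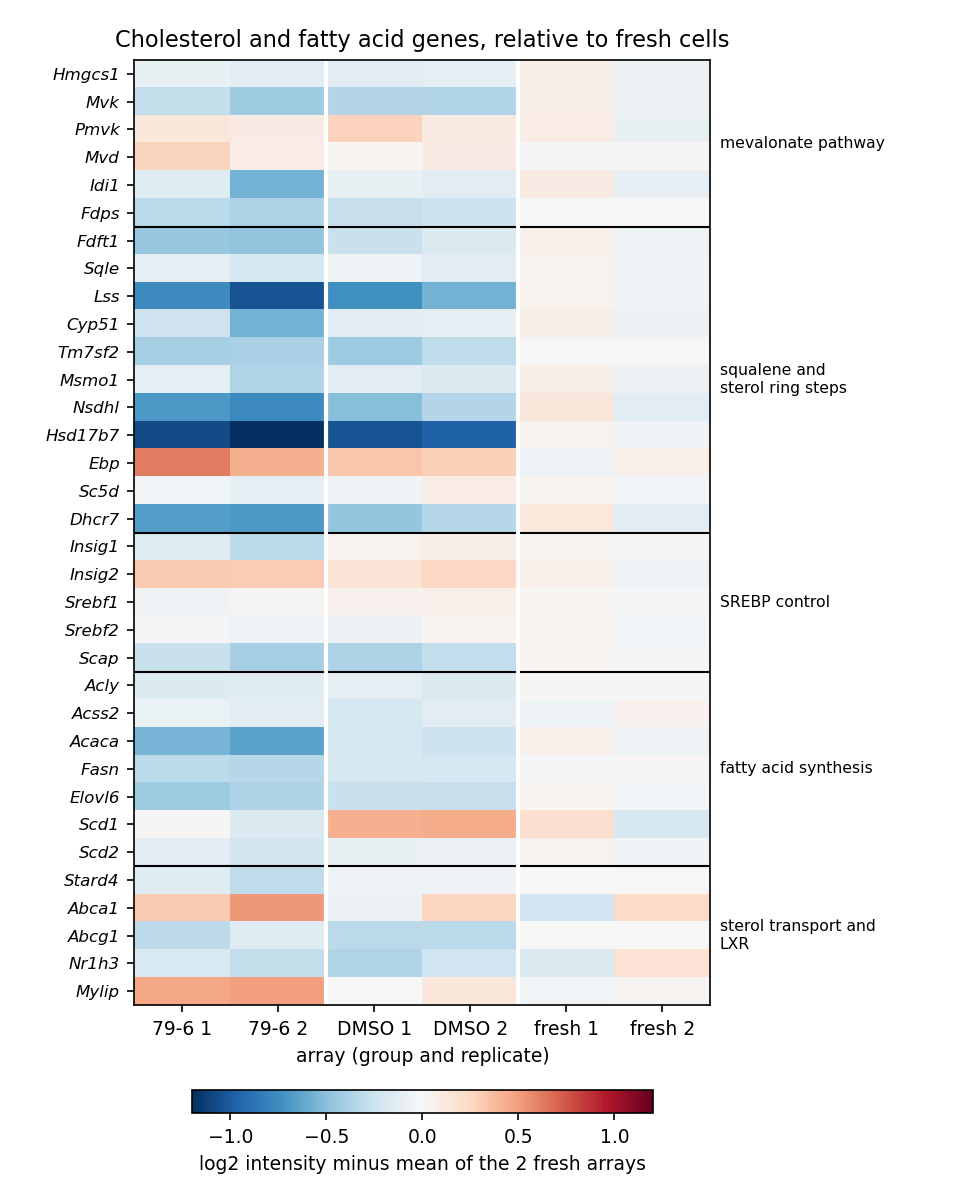
Log2 intensity of the 34 genes (rows, grouped by role) on the 6 arrays (columns), less the mean of the 2 fresh arrays of the same gene; blue is lower and red is higher than fresh cells. The darkest blue lies in Hsd17b7 on the 4 cultured arrays and in Lss on 79-6 replicate 2, and the strongest reds on the 79-6 arrays are those of Ebp, Mylip and Abca1.

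In the mevalonate pathway the calls fell on its middle and its end. Mvk, mevalonate kinase, read 8.87 and 8.73 in the 79-6 arrays, 8.81 and 8.80 in the DMSO arrays and 9.23 and 9.09 in the fresh arrays. Its fall was 0.36 ± 0.09 on the log2 scale in each cultured group against fresh cells (limma adjusted p = 0.0192 for 79-6 and 0.0247 for DMSO). Fdps, farnesyl diphosphate synthase, read 11.18 and 11.13 with 79-6, 11.23 and 11.25 with DMSO and 11.51 and 11.50 in fresh cells. It fell by 0.35 ± 0.07 in 79-6 (limma adjusted p = 0.00889) and by 0.26 ± 0.07 in DMSO (0.0336) against fresh cells. For both genes the fresh arrays lay above all 4 cultured arrays, and each of these calls was lost without fresh replicate 1 and, for DMSO, without either DMSO array. The Mvk call for 79-6 was also lost without 79-6 replicate 2, and both Fdps calls without fresh replicate 2.

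The other mevalonate enzymes were not called. Hmgcs1, HMG-CoA synthase at the head of the pathway, whose promoter above holds the sterol regulatory element, read 11.20 and 11.15 with 79-6, 11.15 and 11.17 with DMSO and 11.36 and 11.22 in fresh cells. Idi1, isopentenyl diphosphate isomerase, read 10.96 and 10.54 with 79-6, 11.02 and 10.97 with DMSO and 11.21 and 11.01 in fresh cells, and its 79-6 replicate 2 was low. Without 79-6 replicate 1 it was called lower in 79-6 against fresh cells (limma adjusted p = 0.0144). Its second probe set differed by -0.38 in 79-6 and -0.36 in DMSO against fresh cells, where the brighter one gave -0.36 for 79-6 and -0.12 for DMSO. Read from that second probe set, Idi1 was called lower against fresh cells in both cultured groups, and for 79-6 it was also called with the mean of both probe sets and with a replicate block. Pmvk, phosphomevalonate kinase, and Mvd, mevalonate diphosphate decarboxylase, had positive differences from fresh cells, 0.12 and 0.18 for 79-6 and 0.19 and 0.06 for DMSO, and neither passed the test. Beyond the pathway, 13 genes of the isoprenoid branches that start from farnesyl diphosphate had 0 called in 79-6 against DMSO by limma. In 79-6 against fresh cells 3 of the 13 fell, Coq2 (-0.43), Fntb (-0.40) and Pdss2 (-0.30), and in DMSO against fresh cells Coq2 fell (-0.30) and Ggps1 rose (0.29). These are 23.1% lower for 79-6, where 13.9% of all genes were, and 7.69% each way for DMSO, where 10.7% fell and 8.89% rose.

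The SREBP genes themselves stayed within narrow bounds. Srebf2, which encodes the SREBP of cholesterol synthesis, read 11.65 and 11.61 in the 79-6 arrays, 11.59 and 11.68 in the DMSO arrays and 11.69 and 11.63 in the fresh arrays. The 95% interval was -0.19 to 0.15 for its difference from fresh cells in both cultured groups. Srebf1, which encodes the SREBPs of fatty acid and general lipid synthesis, read between 9.92 and 10.03 on all 6 arrays. The processing and activity of SREBP proteins were not measured.

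Scap, the escort and sterol sensor of SREBP, read 10.08 and 9.95 in the 79-6 arrays, 9.97 and 10.05 in the DMSO arrays and 10.37 and 10.32 in the fresh arrays. It fell by 0.33 ± 0.08 in 79-6 (limma adjusted p = 0.0197) and by 0.34 ± 0.08 in DMSO (0.0228) against fresh cells, with both fresh arrays above the rest. The calls were lost without either fresh array, without 79-6 replicate 2 for 79-6, and without either DMSO array for DMSO. Insig2, the Insig paralog whose transcription is less tied to SREBP, read 8.89 and 8.88 with 79-6, 8.74 and 8.82 with DMSO and 8.64 and 8.51 in fresh cells. It rose by 0.31 ± 0.08 in 79-6 against fresh cells (limma adjusted p = 0.0254), a call lost without either fresh or either 79-6 array. In a list of 10 other genes of SREBP processing and sterol-regulated degradation, Erlin1 fell in all 3 comparisons, by 0.39 in 79-6 against DMSO, by 0.77 in 79-6 against fresh cells and by 0.39 in DMSO against fresh cells. Erlin1 and Erlin2 encode endoplasmic reticulum proteins that take part in sterol-regulated degradation. Against fresh cells 3 of the 10 fell and 1 rose in each cultured group, where 13.9% of all genes fell and 12% rose for 79-6 and 10.7% fell and 8.89% rose for DMSO, so the 1 rise is about the background. Besides Erlin1, the falls were those of Erlin2 (-0.68) and Mbtps1 (-0.39), the site-1 protease that cuts SREBP, for 79-6, and of Erlin2 (-0.46) and Fbxw7 (-0.38), a ubiquitin ligase subunit that marks nuclear SREBP for degradation, for DMSO. The gene that rose was the ubiquitin ligase gene Rnf145, by 0.42 in 79-6 and by 0.35 in DMSO.

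In fatty acid synthesis, 7 of 7 genes had negative differences in 79-6 against fresh cells, where 41.5% of all genes did, and 3 of the 7 were called lower, where 13.9% of all genes were. Acaca, described above, fell by 0.59 ± 0.08 (limma adjusted p = 0.00162), a call kept whichever single array was removed. Elovl6, which elongates palmitate to stearate, read 10.27 and 10.33 in the 79-6 arrays, 10.43 and 10.42 in the DMSO arrays and 10.73 and 10.67 in the fresh arrays. The groups were apart, and the difference from fresh cells was -0.40 ± 0.07 for 79-6 (limma adjusted p = 0.00525) and -0.28 ± 0.07 for DMSO (0.0307). The DMSO call was lost without either fresh or either DMSO array. Fasn, fatty acid synthase, read 11.50 and 11.48 with 79-6, 11.63 and 11.61 with DMSO and 11.81 and 11.83 in fresh cells. It fell by 0.33 ± 0.07 in 79-6 against fresh cells (limma adjusted p = 0.0105), a call lost without either fresh array, and DMSO minus fresh was -0.20 (limma adjusted p = 0.0859).

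The enzymes that supply acetyl-CoA were not called in any comparison. Acly, which splits citrate, read 10.98 and 11.00 with 79-6, 11.03 and 10.97 with DMSO and 11.16 and 11.13 in fresh cells. Acss2, which uses acetate, read between 9.23 and 9.50 on all arrays. Of 39 other genes of fatty acid elongation, desaturation and acyl lipid synthesis, 7 rose and 9 fell in 79-6 against fresh cells, or 17.9% and 23.1%, where 12% of all genes rose and 13.9% fell. In DMSO against fresh cells 4 rose and 8 fell, or 10.3% and 20.5%, where 8.89% of all genes rose and 10.7% fell. The list's medians were -0.03 for 79-6 and -0.09 for DMSO. Gpam, the mitochondrial acyltransferase that starts glycerolipid synthesis, had the widest change of the 39 in both. It read 8.09 and 8.01 in the 79-6 arrays, 8.27 on both DMSO arrays and 9.80 and 9.73 in the fresh arrays, with differences from fresh cells of -1.71 for 79-6 (limma adjusted p = 1.47e-05) and -1.49 for DMSO (2.64e-05). Against fresh cells Fads2, the delta-6 desaturase, differed by -0.83 in 79-6 and -0.58 in DMSO, and Dgat2, which makes triglyceride, by 0.73 in 79-6 and 0.67 in DMSO, all called. In 79-6 against DMSO 1 of the 39 rose (2.56%) and 0 fell, about the background, where 2.38% of all genes rose and 1.98% fell. That gene was Fads3, of the desaturase family (0.66, limma adjusted p = 0.0122). Fads3 read 8.19 and 8.26 with 79-6, 7.51 and 7.63 with DMSO and 8.47 and 8.63 in fresh cells.

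Among the efflux and LXR genes, Mylip was also higher in 79-6 against fresh cells, by 0.48 ± 0.08 (limma adjusted p = 0.00412), and this call held whichever single array was removed. Abcg1 read 10.81 and 10.97 in the 79-6 arrays, 10.80 on both DMSO arrays and 11.13 and 11.12 in the fresh arrays. It fell by 0.33 ± 0.08 in DMSO against fresh cells (limma adjusted p = 0.0256), a call lost without either fresh or either DMSO array, and 79-6 minus fresh was -0.23 (limma adjusted p = 0.0675), called without 79-6 replicate 2 (0.0451). Nr1h3 was not called, but without fresh replicate 1 it was lower in DMSO against fresh cells (limma adjusted p = 0.0402). Its fresh arrays read 7.11 and 7.45. Abca1 minus its fresh level was 0.41 ± 0.17 in 79-6 (limma adjusted p = 0.124), and it was called without fresh replicate 2 (adjusted p = 0.0371). Stard4 was not called, with differences of -0.23 for 79-6 and -0.06 for DMSO against fresh cells, and it was called for 79-6 without 79-6 replicate 1 (limma adjusted p = 0.0378).

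Of 23 other genes of cholesterol uptake, esterification, transport and oxysterol metabolism, 2 rose and 1 fell in 79-6 against DMSO. These are 8.7% and 4.35%, where 2.38% of all genes rose and 1.98% fell. Gramd1a, which moves cholesterol from the plasma membrane to the endoplasmic reticulum, rose by 0.45 (limma adjusted p = 0.0427) and read 10.80 and 10.78 with 79-6, 10.24 and 10.44 with DMSO and 9.61 and 9.73 in fresh cells. Osbpl3, an oxysterol-binding protein family gene, rose by 0.42 (limma adjusted p = 0.0246) and Lrp8, a lipoprotein receptor family gene, fell by 0.54 (0.017). Lrp8 read 8.71 and 8.67 with 79-6, 9.16 and 9.28 with DMSO and 9.60 and 9.51 in fresh cells, so its groups were apart in the order of Acaca. Against fresh cells 4 rose and 4 fell with 79-6, or 17.4% each way, where 12% of all genes rose and 13.9% fell. With DMSO 2 rose (8.7%) and 6 fell (26.1%), where 8.89% of all genes rose and 10.7% fell. Lipa, the lysosomal acid lipase that frees cholesterol from its esters, rose by 1.04 in 79-6 and by 0.93 in DMSO, and Osbpl1a fell by 1.05 in 79-6 and by 0.87 in DMSO.

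**Figure D4:**
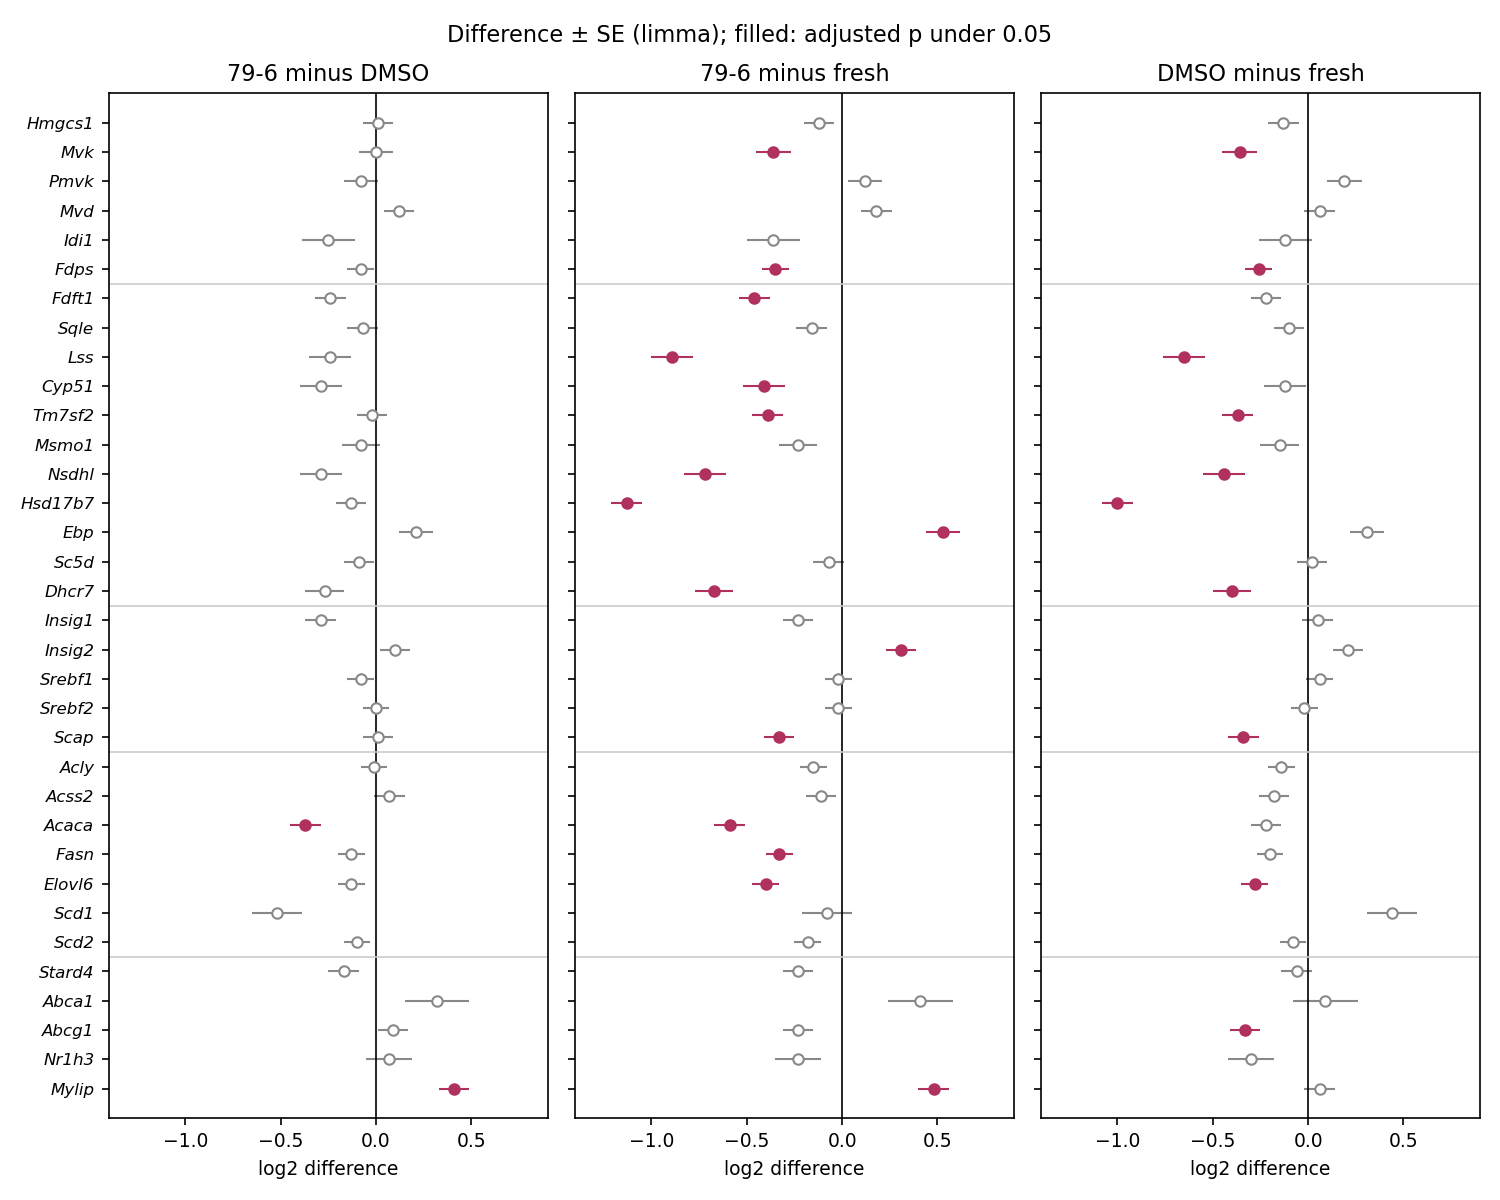
Log2 difference (horizontal axes) of each of the 34 genes in 3 comparisons, with limma standard errors as bars; filled points have an adjusted p under 0.05 and grey lines separate the roles. In 79-6 minus DMSO the filled points are Acaca at -0.37 and Mylip at 0.41, and in the comparisons with fresh cells Hsd17b7 lies furthest left, at -1.13 for 79-6.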

How the data were processed

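RNA of 6 samples was labelled with biotin and hybridised to 1-colour whole-transcript arrays, per the labels. The authors deposited intensity values on the linear scale, from 8.75 to 25316, and the submitters' processing notes name RMA and oligo, without versions. Log2 was taken before every test. Of 34760 probe sets, 21640 carry 1 symbol in the platform annotation, 1321 several and 11799 none, and the brightest single-symbol probe set stood for each of 19937 genes. A single linear model with a mean for each group took in the 6 arrays (lmFit and eBayes of limma 3.58.1 in R 4.3.3, with 3 residual and 4.24 prior degrees of freedom). Tests were two-sided, p-values were adjusted by Benjamini-Hochberg across the 19937 genes, and a call is an adjusted p under 0.05. Errors given after ± are standard errors from limma. Arrays give no counts, so their number limits the precision. The fit was checked on simulated data.

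The genes and lists were chosen with earlier results of these data known, so lists are described by counts and medians, with no list test. All 34 measured genes are reported. From other lists, up to 4 called genes with the widest change per comparison could be named. Thy1 was read as a check of the sort, and Ptprc and Cd3e were read beside it, Cd3e being chosen after its values were seen. Promoters are RefSeq's, on GRCm38.p6. No coordinates of array probes were used. The alternatives were a replicate block, each array left out, other probe set rules, other scalings, trend and robust settings, a filter on dim genes, fits of the compared groups alone and a minimum change of 1.5-fold.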

Additional observations from a re-analysis of the deposited data

How the results depend on the processing

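Among the 15 alternatives, no direction of a called gene among the 34 reversed where the difference between groups could change. It could change when an array of a compared group was left out, with other scalings and, for genes with several probe sets, other probe set rules. The replicate block, trend and robust settings, dim gene filter, fits of the compared groups alone and minimum change leave each difference as it was. So does the removal of an array of the third group. Calls were less stable: those of 5 genes in 79-6 against fresh cells and 1 gene, Hsd17b7, in DMSO against fresh cells held under every alternative, and neither of the 2 calls in 79-6 against DMSO did. Leaving out 1 array, where the lone array left in a group is assumed to vary like the other groups, gave 0 higher and 0 to 1 lower genes in 79-6 against DMSO, the 1 being Scd1, with 93 to 661 calls over all genes. For DMSO against fresh cells the range was 0 to 1 higher, 1 to 10 lower and 2286 to 4070 over all genes. For 79-6 against fresh cells it was 2 to 3 higher, 7 to 17 lower, 3081 to 5068 over all genes and a median from -0.30 to -0.15. A minimum change of 1.5-fold left 0 and 0 of the lipid genes and 322 of all genes in 79-6 against DMSO, 2 lower and 1502 in DMSO against fresh cells, and 0 higher, 5 lower and 1903 in 79-6 against fresh cells. The trend and robust settings gave 4 lower and 1723 of all genes in 79-6 against DMSO, and 2 higher in DMSO against fresh cells. The higher count in DMSO against fresh cells was also 2 after median centring, after quantile normalization and without dim genes, and 1 with the mean of probe sets or the 2 groups alone. In 79-6 against DMSO the 2 groups alone gave 0 higher and 1 lower, Scd1 in place of Acaca, and the median probe set gave 0 lower. Same-numbered arrays deviated together at correlations of -0.074, 0.004 and 0.095, which does not show pairing; the fit with a replicate block gave 0 lower in 79-6 against DMSO and 1 higher in DMSO against fresh cells, with 774, 3667 and 4852 calls over all genes in 79-6 against DMSO, DMSO against fresh and 79-6 against fresh. The cause of these changes was not tested. With 2 arrays a group, a gene that missed the threshold is not shown to be unchanged.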

Other observations

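Of 24 genes of fatty acid oxidation, 6 fell (25%) and 0 rose in 79-6 against fresh cells, where 13.9% of all genes fell and 12% rose (limma). In DMSO against fresh cells 5 fell (20.8%) and 1 rose (4.17%), where 10.7% of all genes fell and 8.89% rose. The median log2 difference of the 24 was -0.03 for 79-6 and -0.05 for DMSO, with ranges of -0.68 to 0.22 and -0.77 to 0.34. Cpt1a, which admits fatty acids into mitochondria, read 10.66 and 10.77 in the 79-6 arrays, 10.71 and 10.75 in the DMSO arrays and 11.47 and 11.31 in the fresh arrays. Acadl, a dehydrogenase of long-chain acyl-CoA, read 9.93 and 10.04 with 79-6, 9.82 and 9.74 with DMSO and 10.54 and 10.56 in fresh cells. In 79-6 against DMSO 0 of the 24 were called by limma.

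Of 20 genes of fatty acid uptake, binding and lipid droplets, 6 rose (30%) and 3 fell (15%) in 79-6 against fresh cells, where 12% of all genes rose and 13.9% fell. In DMSO against fresh cells 1 rose (5%) and 3 fell (15%), where 8.89% of all genes rose and 10.7% fell, so the share that fell was near that of all genes in both comparisons. Lpl, lipoprotein lipase, read 10.24 and 10.40 in the 79-6 arrays, 9.82 and 9.89 in the DMSO arrays and 7.75 and 8.39 in the fresh arrays, and macrophages are known to express it. The macrophage marker sum was highest in the 79-6 arrays and lowest in the fresh arrays, and its part in the Lpl difference was not tested. Slc27a2, a very long-chain acyl-CoA synthetase, read 6.30 and 6.20 with 79-6, 6.52 and 6.34 with DMSO and 7.70 and 7.43 in fresh cells. In 79-6 against DMSO 1 of the 20 fell (5%) and 0 rose, where 1.98% of all genes fell and 2.38% rose. That gene was Slc27a1, a fatty acid transport protein gene (-0.58, limma adjusted p = 0.0203). Slc27a1 read 8.91 and 8.82 with 79-6, 9.36 and 9.53 with DMSO and 9.11 and 9.24 in fresh cells.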
